A study of Mus musculus with 6 samples.

Results

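The mitochondrial ribosomal protein genes were taken as all genes whose symbol begins with Mrpl or Mrps followed by a number, read from probe sets that name exactly 1 gene. The rule gave 77 genes of 19938 with a probe set of their own. By symbol, 48 belong to the large subunit (Mrpl) and 29 to the small subunit (Mrps). Where a gene had several probe sets, the one with the highest mean over all 6 arrays was kept. All 77 had a mean above 5.81 (log2), the 40th percentile of probe sets under which a gene was called dim, so all were among the 12071 genes tested. The rule used symbols and mean signal, not the difference between groups.

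RNA of epithelial cells sorted from the mouse colon as EpCAM+CD45- cells was hybridised to Affymetrix arrays, 6 samples on 6 arrays. EpCAM is a surface protein of epithelia, and CD45, encoded by Ptprc, is the antigen of leukocytes. The antibiotics group (3 samples) came from mice given antibiotics while they were re-fed, and the re-fed group (3 samples) from mice re-fed with no treatment; the compounds are not named in the sources used here. Mice of both groups were wild-type (WT) BALB/c males, 6 weeks of age, whose colon was taken after a 36 h fast and 24 h of re-feeding. The labels call the samples biological replicates, but do not say how many mice a sample holds, so p-values measure the spread between these samples.

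The mitochondrial ribosome sits in the mitochondrial matrix and makes the few proteins that mitochondrial DNA encodes, all of them parts of the oxidative phosphorylation complexes. Its RNAs come from mitochondrial DNA. Its proteins are encoded in the nucleus, made by cytosolic ribosomes and imported. It descends from a bacterial ribosome, and several antibiotics that stop bacterial translation can also act on it; whether those given here do was not tested. In the colon, absorptive cells burn butyrate made by bacteria in their mitochondria, which ties these organelles to the microbiota.

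The sorted cells carried the labelled markers. Epcam averaged 12.12 ± 0.065 in antibiotics samples and 12.16 ± 0.11 in re-fed samples on the log2 scale (SD, n = 3 each), and Ptprc was dim, under 5.81 on all 6 arrays. All 10 epithelial markers of a list were present, with a mean level of 12.30 to 12.43 over antibiotics samples and 12.46 to 12.51 over re-fed samples. Of 10 leukocyte markers with a probe set, 8 were dim, Ptprc, Cd3g and Cd79a among them. Cd3e and Cd68 were not dim. The mean of 6 crypt-base and cycling markers, 2 of them dim (Lgr5 and Ascl2), was 7.03 to 7.57 in antibiotics samples and 6.81 to 7.07 in re-fed samples. The mean of 6 goblet cell markers was 12.42 to 12.74 in antibiotics samples and 12.75 to 12.90 in re-fed samples, with no overlap. The epithelial mean did not overlap either. Nor did the leukocyte mean, at 5.28 to 5.30 in antibiotics samples and 5.24 to 5.27 in re-fed samples. Of 8 markers of stroma and endothelium, 3 were dim (Dcn, Vim and Cdh5). Their mean over all 8 was 5.96 to 6.15 in antibiotics samples and 6.02 to 6.12 in re-fed samples. No marker tested passed, and dim markers were not tested. These are bulk samples, in which fewer cells of a type and less RNA per cell cannot be told apart.

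No mitochondrial ribosomal protein gene differed between the groups past the threshold, an adjusted p of 0.05 from limma. Differences are given on the log2 scale as antibiotics minus re-fed throughout. Of the 77 genes, 0 passed, with a smallest adjusted p of 0.254; of all 12071 genes, 7 passed (0.058%). At an unadjusted p under 0.05 there were 6 of the 77 (7.79%), against 1524 of all genes tested (12.6%). The groups did not overlap for 8 of the 77 (10.4%), against 2362 of all genes (19.6%). On the counts by unadjusted p and by overlap the share of mitochondrial ribosomal protein genes was below that of all genes, with no test of that gap; the calls over all genes are too few to read a share from 77. The count of 7 rests on few arrays and changed with every array left out, from 0 to 11. Without antibiotics replicate 1, 0 genes passed in limma, and 1040 had an unadjusted p under 0.05.

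The differences were small. Their median was 0.067, with quartiles of -0.028 and 0.14 and a range of -0.35 to 0.46; the median over all genes tested was 0.0033. The difference was under 0.25 in size for 66 genes and over it for 11. The 95% intervals of limma lay inside a 2-fold difference in either direction for all 77 genes and inside 1.5-fold for 69. Intervals reached 0.27 to either side at the median (0.21 to 0.55 over the 77 genes), and 0.27 at the median over all genes. Of the 77, 49 stood above 0 (63.6%), against 50.7% of all genes tested. That lean depended on the arrays, as the values within 4 arrays show further on.

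**Figure D1:**
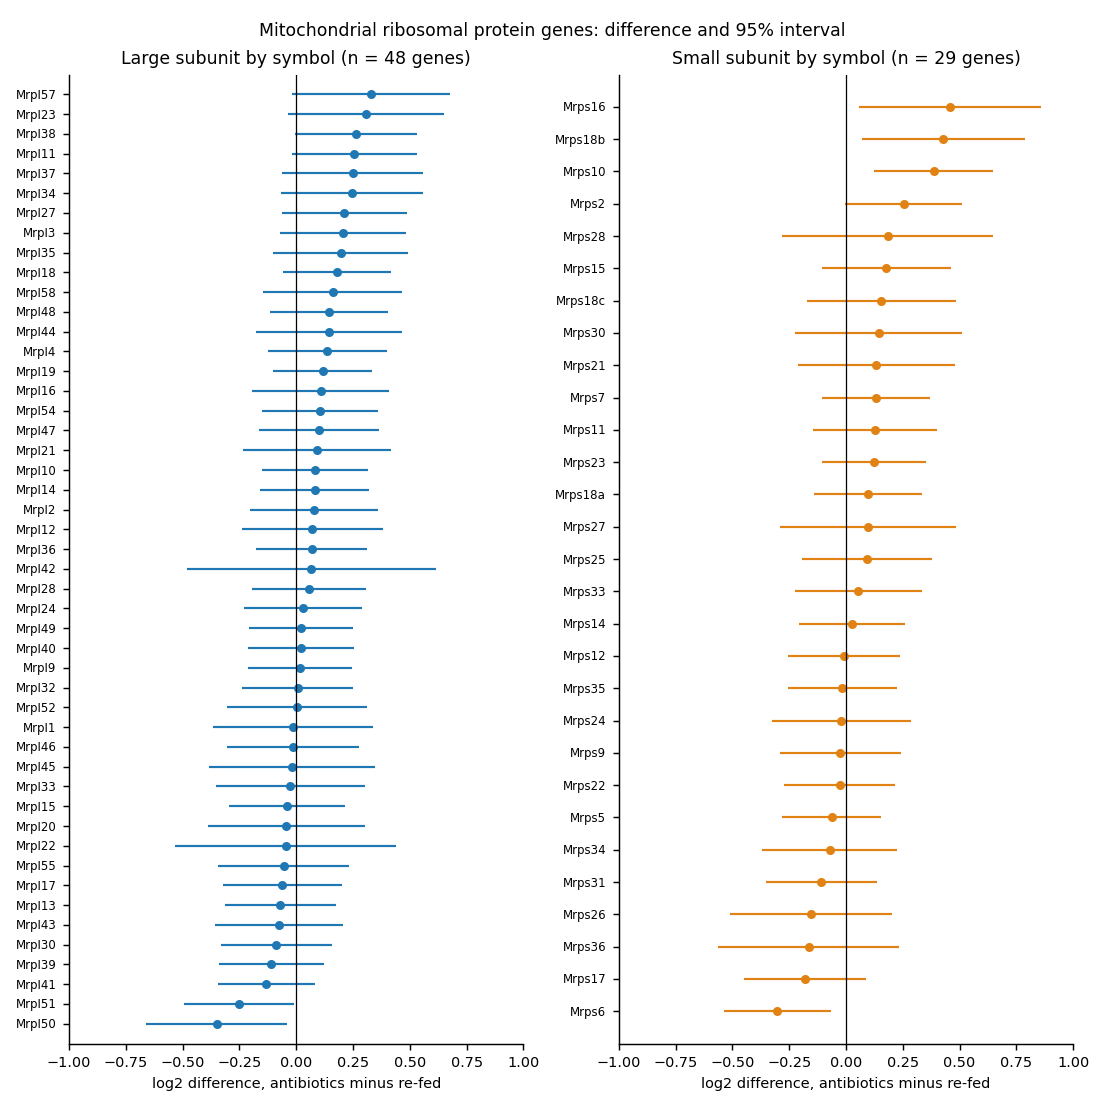
The log2 difference (antibiotics minus re-fed) of each of the 77 genes is plotted on the horizontal axis, with its 95% interval from limma as a bar, for the large subunit by symbol (left) and the small subunit (right). All intervals lie within 1 log2 unit of 0, and 6 of them leave out 0: Mrpl50 and Mrpl51 on the left, and Mrps6, Mrps10, Mrps16 and Mrps18b on the right.

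The 6 genes at an unadjusted p under 0.05 lay on both sides of 0, 3 higher and 3 lower with antibiotics, and none of the 6 passed after adjustment. Of these, 4 belong to the small subunit, a share of 13.8% of its genes, against 12.6% of all genes tested. Mrps10 encodes a protein of the small subunit's head with a counterpart in bacteria. It had 8.10, 7.91 and 7.82 in antibiotics samples, against 7.49, 7.48 and 7.69 in re-fed samples. Every antibiotics sample lay above every re-fed sample, and the difference was 0.39 (SE 0.12, limma adjusted p = 0.254). Mrps16 encodes another small-subunit protein with a bacterial counterpart. Its values were 8.32, 8.24 and 8.76 in antibiotics samples, against 8.22, 7.66 and 8.07 in re-fed samples. The groups were separated by a narrow margin between antibiotics replicate 2 and re-fed replicate 1, and the difference was 0.46 (SE 0.18, adjusted p = 0.343).

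Mrps18b encodes 1 of 3 mammalian relatives of the bacterial protein S18. It stood at 9.18, 8.64 and 8.93 in antibiotics samples, against 8.49, 8.69 and 8.27 in re-fed samples. The groups overlapped, since antibiotics replicate 2 lay under re-fed replicate 2, and the difference was 0.43 (SE 0.16, adjusted p = 0.325). Mrps6 encodes the neighbour of S18 proteins in bacterial ribosomes, and it went the other way. It measured 10.43, 10.27 and 10.45 in antibiotics samples, against 10.77, 10.60 and 10.69 in re-fed samples. All 3 antibiotics samples lay lower, by 0.30 on average (a difference of -0.30, SE 0.10, adjusted p = 0.296).

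In the large subunit the 2 genes with an unadjusted p under 0.05 both encode proteins that bacterial ribosomes lack, and both lay lower with antibiotics. Mrpl50 had 7.81, 7.69 and 7.49 in antibiotics samples, against 7.76, 8.16 and 8.11 in re-fed samples. The groups overlapped through re-fed replicate 1, and the difference was -0.35 (SE 0.14, adjusted p = 0.351). Mrpl51 had 9.77, 9.54 and 9.78 in antibiotics samples, against 9.98, 9.93 and 9.94 in re-fed samples. The re-fed samples lay close together and above all antibiotics samples, with a difference of -0.25 (SE 0.11, adjusted p = 0.376). A second probe set of Mrpl51 gave -0.36 (adjusted p = 0.273).

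**Figure D2:**
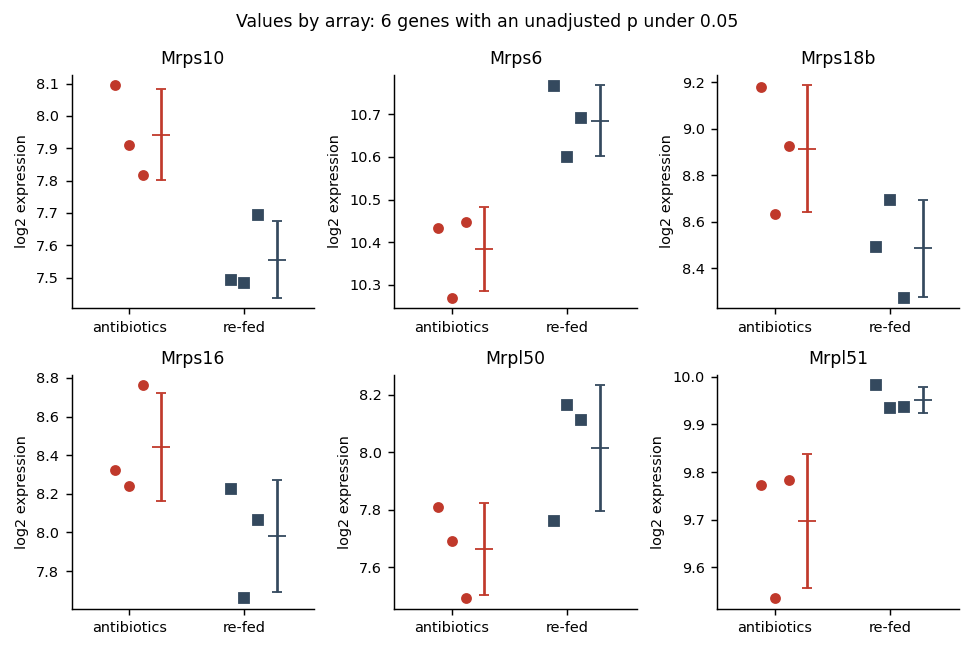
Log2 expression on each array (vertical axis, a scale of its own in each panel) is plotted for the 6 genes with an unadjusted p under 0.05, antibiotics samples as red circles left of re-fed samples as blue squares; the bar beside each group marks the mean ± SD (n = 3). The groups are apart for Mrps10, Mrps6, Mrps16 and Mrpl51 and overlap for Mrps18b and Mrpl50.

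Promoter sequence is shown for 4 of these 6 genes, 2 from each direction, so that the stretches before genes that leaned opposite ways can be read side by side. Each line holds 250 bases from the RefSeq promoter table of the mouse build GRCm38.p6, 5′ to 3′ on the gene's strand, and ends just before the start of transcription. Capitals mark a match to 1 of 4 motifs described further on. Mrps10 lies at chr17:47368947-47369196 on the plus strand and Mrps18b at chr17:35916441-35916690 on the minus strand. Mrps6 lies at chr16:92058086-92058335 and Mrpl51 at chr6:125191950-125192199, both on the plus strand.
Mrps10: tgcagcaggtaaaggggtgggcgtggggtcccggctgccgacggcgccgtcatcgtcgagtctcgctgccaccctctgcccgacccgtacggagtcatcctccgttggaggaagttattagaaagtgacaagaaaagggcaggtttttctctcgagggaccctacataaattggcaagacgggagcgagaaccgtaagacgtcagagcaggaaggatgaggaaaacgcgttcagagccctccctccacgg
Mrps18b: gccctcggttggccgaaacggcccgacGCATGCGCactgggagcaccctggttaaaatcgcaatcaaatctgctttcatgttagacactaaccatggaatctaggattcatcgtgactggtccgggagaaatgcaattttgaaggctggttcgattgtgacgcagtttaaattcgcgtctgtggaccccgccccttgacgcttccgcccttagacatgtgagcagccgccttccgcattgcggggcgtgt
Mrps6: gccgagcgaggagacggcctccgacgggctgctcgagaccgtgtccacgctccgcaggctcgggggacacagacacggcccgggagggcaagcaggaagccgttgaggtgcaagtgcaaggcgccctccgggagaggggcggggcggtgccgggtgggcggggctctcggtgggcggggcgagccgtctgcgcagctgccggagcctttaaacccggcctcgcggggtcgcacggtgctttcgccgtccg
Mrpl51: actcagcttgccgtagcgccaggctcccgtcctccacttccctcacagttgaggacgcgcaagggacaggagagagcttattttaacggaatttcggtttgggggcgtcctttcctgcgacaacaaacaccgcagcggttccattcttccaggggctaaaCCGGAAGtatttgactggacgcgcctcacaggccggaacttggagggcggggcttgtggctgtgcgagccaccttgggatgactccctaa
The stretches of Mrps10 and Mrps6 hold none of the 4 motifs. That of Mrps18b holds the NRF1 motif and that of Mrpl51 the ETS motif.

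The median differences of both subunits lay close together. The median difference was 0.067 over the 48 large-subunit genes, of which 32 stood above 0 and 16 below, and 0.093 over the 29 small-subunit genes, of which 17 stood above and 12 below. The large minus the small median was -0.026. Of the large subunit 2 genes (4.17%), and of the small subunit 4 (13.8%), had an unadjusted p under 0.05, against 12.6% of all genes tested. Symbols do not follow place for every gene: the proteins of Mrps30 and Mrps18a sit in the large subunit, and that of Mrps36 is a component of the oxoglutarate dehydrogenase complex. With these 3 put where their proteins belong, medians were 0.069 over 50 large-subunit genes and 0.073 over 26 small-subunit genes. The gap between medians was then -0.0043.

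Genes were also grouped by descent, with no test of the gap between the groups. The 48 genes whose protein has a bacterial counterpart had a median of 0.083, with 33 above 0 and 15 below. The 28 genes of proteins found in mitochondria only had a median of 0.021, with 16 above and 12 below.

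The mean level of the members varied from array to array within both groups. Each gene was set against its own mean over the 6 arrays, and these deviations were averaged over the 77 genes. The mean deviation was 0.050, -0.079 and 0.12 in antibiotics samples 1 to 3, against -0.10, 0.0023 and 0.0071 in re-fed samples 1 to 3. The groups overlapped, at 0.030 ± 0.10 in antibiotics samples and -0.030 ± 0.061 in re-fed samples (SD, n = 3 each). Antibiotics replicate 3 had 59 of the 77 genes above their own mean and antibiotics replicate 2 had 19, so by this count the arrays farthest apart belong to the same group. Among re-fed samples 23, 38 and 42 genes stood above their mean.

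Both subunits followed this course. The large-subunit mean deviated by 0.061, -0.084 and 0.11 in antibiotics samples, against -0.10, 0.00033 and 0.016 in re-fed samples. The small-subunit mean deviated by 0.032, -0.070 and 0.14 in antibiotics samples, against -0.098, 0.0054 and -0.0078 in re-fed samples. The large minus the small mean stayed between -0.028 and 0.029 on all 6 arrays. Antibiotics replicate 3 also had the highest mean of crypt-base and cycling markers (7.57, against 6.81 to 7.07 on the other 5 arrays) and of Myc (8.10); the part of these in the result was not tested.

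**Figure D3:**
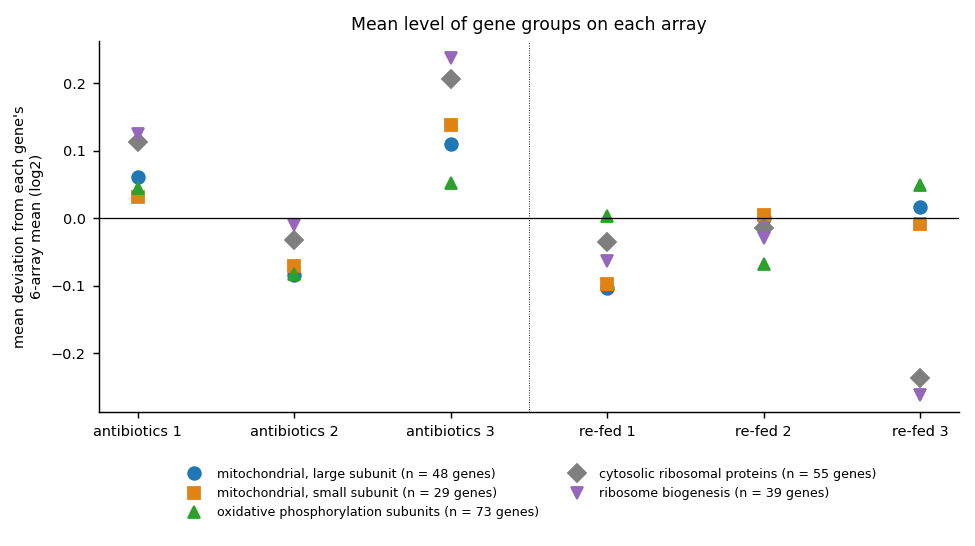
The mean deviation of each gene group from its genes' 6-array means (log2, vertical axis) is shown for the 3 antibiotics arrays, left of the dotted line, and the 3 re-fed arrays. Large-subunit circles and small-subunit squares lie close together on every array, low on antibiotics replicate 2 and re-fed replicate 1 and high on antibiotics replicate 3, while cytosolic ribosomal protein and ribosome biogenesis genes are lowest on re-fed replicate 3.

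The deposited values bear on how far these arrays can be compared. Between any pair of 4 arrays (antibiotics replicates 1 and 2, re-fed replicates 2 and 3), 372 to 435 values equal in all deposited decimals were found, as arrays normalised in a common run have. Re-fed replicate 1 had 154 to 198 such values with each of the 4, and antibiotics replicate 3 had at most 67 with any array. Antibiotics replicate 3 has 10829 different values in all, against 34568 or more on the remaining 5 arrays, so its counts cannot be set against those of the others, and its place outside the run is less sure. Re-fed replicate 1 and antibiotics replicate 3, not counted in the common run here, lie at the low and the high end of the members' mean deviation. Whether normalisation has a part in that was not tested. This grouping was read from the values and is given by no label. Within the 4 arrays of the common run, 0 of the 77 genes passed (smallest limma adjusted p 0.103), against 54 of all genes (0.447%). At an unadjusted p under 0.05 there were 10 of the 77 (13.0%), against 2097 of all genes (17.4%).

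The lean to values above 0 was not seen there. The median difference within the 4 arrays was -0.013, with 35 genes above 0 and 42 below. Large-subunit genes had a median of -0.0033 (23 above 0, 25 below) and small-subunit genes -0.052 (12 above, 17 below). Genes with a bacterial counterpart had a median of 0.0029 (25 above, 23 below) and those found in mitochondria only -0.058 (10 above, 18 below). Of the 77 genes, 55 had the same sign as over 6 arrays; the 4 arrays are among the 6, so the sets share data. The 6 genes named above had the same sign in both, at 0.42 for Mrps10, 0.42 for Mrps16, 0.43 for Mrps18b, -0.29 for Mrps6, -0.39 for Mrpl50 and -0.28 for Mrpl51. The gene with the smallest adjusted p there was Mrps36, at -0.46 (adjusted p = 0.103) against -0.16 over 6 arrays.

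**Figure D4:**
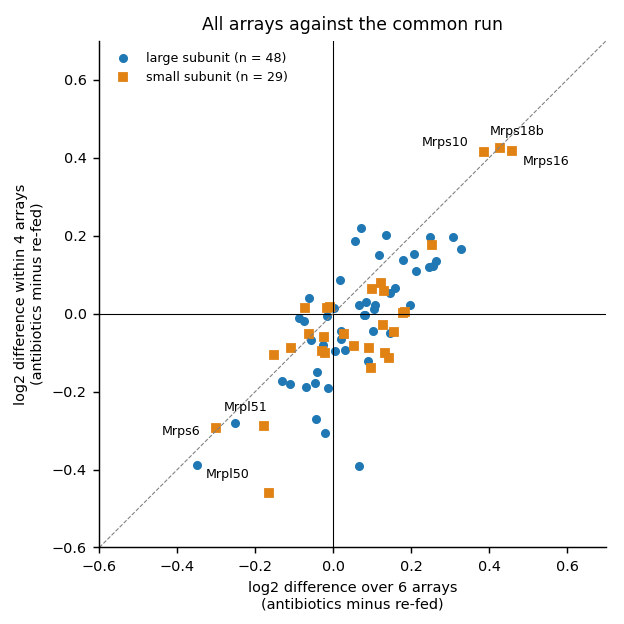
Each point is a gene, with its log2 difference (antibiotics minus re-fed) over 6 arrays on the horizontal axis and within the 4 arrays of the common run on the vertical axis; the dashed line marks equal values. The 6 named genes lie near the line, while 42 of the 77 lie below 0 on the vertical axis against 28 on the horizontal axis.

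Array weights, which let limma count arrays that deviate less more heavily, gave the sole calls among the members. Mrps10 differed by 0.50 (adjusted p = 0.0155) and Mrps18b by 0.56 (adjusted p = 0.0356), 2 of 77 genes (2.60%), against 1169 of all genes (9.68%). The weights were uneven, 3.82 for antibiotics replicate 1 and 0.33 for antibiotics replicate 3.

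Further large-subunit genes ranked next, with no pass of the test. Mrpl57 had 7.97, 7.56 and 8.20 in antibiotics samples, against 7.54, 7.55 and 7.64 in re-fed samples, a difference of 0.33. Mrpl23, a protein at the exit of the peptide tunnel, differed by 0.31, and its second probe set by 0.32. Mrpl38, of the central protuberance, differed by 0.26 and Mrpl11, of the stalk base, by 0.26. For all 4 genes the value within the common run was smaller, 0.17, 0.20, 0.14 and 0.12 in that order. Mrpl41 and Mrpl39, both found in mitochondria only, differed by -0.13 and -0.11.

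Genes whose groups did not overlap, beyond the 6, had small differences; those of Mrpl27, Mrpl3 and Mrpl19 are given after their values were seen. Mrpl27, of the peptidyl transferase region, differed by 0.21, Mrpl3 by 0.21 and Mrpl19 by 0.12, and all 3 stood above. Mrpl41 was the remaining one, and it stood below. In all, 5 of the 8 stood above and 3 below.

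In the small subunit, Mrps2 differed by 0.25, and its groups overlapped. Mrps17 differed by -0.18, Mrps26 by -0.15 and Mrps31 by -0.11. Mrps12, whose protein lines the decoding centre, had 6.99, 7.23 and 7.18 in antibiotics samples, against 7.25, 7.09 and 7.10 in re-fed samples. That is a difference of -0.0093, with a 95% interval of -0.26 to 0.24. Mrps35 differed by -0.016, Mrps21 by 0.13, and Mrps21 stood at -0.10 within the common run.

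The 3 relatives of bacterial S18 differed by 0.098 (Mrps18a), 0.43 (Mrps18b) and 0.16 (Mrps18c). Within the common run they stood at 0.062, 0.43 and -0.048. Mrps18c had 8.61, 8.67 and 8.75 in antibiotics samples, against 8.19, 8.66 and 8.72 in re-fed samples. Re-fed replicate 1 lay apart from the other 5 arrays, and without it the difference was -0.011. Mrps30 showed the same, at 0.14 over 6 arrays and -0.045 without re-fed replicate 1.

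Other large-subunit genes were named whatever their values, for a difference near 0 over 6 arrays or for a low signal. Mrpl12, a stalk protein that also binds the mitochondrial RNA polymerase, had 9.66, 9.34 and 9.43 in antibiotics samples, against 9.66, 9.29 and 9.28 in re-fed samples, a difference of 0.071 (95% interval -0.24 to 0.38). It stood at 0.22 within the common run and at 0.26 with array weights (adjusted p = 0.132). Mrpl22, of the tunnel exit, differed by -0.047, with the 95% interval -0.53 to 0.44. Its mean of 5.85 was the lowest of the 77 genes, close to the 5.81 below which a gene was called dim. Mrpl22 had 6.02, 5.90 and 5.56 in antibiotics samples, against 5.34, 6.15 and 6.12 in re-fed samples. Antibiotics replicate 3 and re-fed replicate 1 thus lay under 5.81. Re-fed replicate 1 lay lowest of all, and without it the difference was -0.31 (limma adjusted p = 0.448). Mrpl52 differed by 0.0028 and Mrpl32 by 0.0056. The spread between samples was that of other genes: the median SD within groups was 0.149 over the members and 0.148 over all genes tested.

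Probe sets of a gene did not always give the same sign. Of the 8 genes with 2 probe sets, Mrpl27 (0.21 and -0.11), Mrpl41 (-0.13 and 0.15) and Mrpl47 (0.10 and -0.20) had opposite signs between the kept and the other probe set. Mrpl23, Mrpl51, Mrps5, Mrps33 and Mrps36 had 1 sign in both. Probe sets of this array are numbered along the chromosomes. The kept ones of Mrpl27, Mrpl41, Mrpl48, Mrpl51 and Mrps33 carry numbers among genes of a chromosome other than that of the gene in RefSeq, so they may read a copy of the gene elsewhere; this was not tested. With the probe set at the gene's own chromosome, Mrpl41 stood at 0.15 and Mrpl51 at -0.36, and 0 of the 76 genes left passed (Mrpl48 has no other probe set).

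Related gene groups are given for comparison by their counts, with no test of the lists. In none of the 8 lists did a gene pass limma's threshold. An unadjusted p under 0.05, met by 12.6% of all genes tested, was reached by 0 of the subunits under other names, 2 assembly factors (9.52%) and 0 translation factors. It was reached by 3 aminoacyl-tRNA synthetases (15.8%), 2 transcription genes (12.5%) and 5 oxidative phosphorylation subunits (6.85%). Subunits of the mitochondrial ribosome under other names had 4 genes tested, with a median of 0.060; Dap3, a small-subunit protein first named for a role in cell death, differed by 0.10. Assembly factors (21 genes) had a median of 0.00034, with 11 above 0 and 10 below. Of these Mterf3, a regulator of mitochondrial transcription that is also tied to ribosome assembly, differed by -0.34 (limma adjusted p = 0.241) and Noa1, a GTPase, by 0.38 (adjusted p = 0.322). Their groups did not overlap, which held for 2 of the 21 genes (9.52%), against 19.6% of all genes.

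Genes of the translation machinery around the ribosome showed both signs. Translation factors (14 genes) had a median of 0.0094, with 7 above 0 and 7 below. Mtfmt and Guf1 differed by -0.22 and -0.15. Oxa1l, which inserts new proteins into the inner membrane, differed by 0.18. Mitochondrial aminoacyl-tRNA synthetases (19 genes) had a median of -0.010, with 9 above and 10 below. Fars2, Wars2 and Tars2, which load tRNAs with phenylalanine, tryptophan and threonine, differed by 0.36, 0.37 and 0.31 (smallest adjusted p 0.213), and the groups of each did not overlap. Over this list the groups did not overlap for 4 of the 19 genes (21.1%), against 19.6% of all genes. Subunits of oxidative phosphorylation from nuclear genes (73 genes) had a median of -0.000085, with 36 above and 37 below. Ndufs5 and Ndufs1 of complex I differed by -0.34 and -0.24, and Atp5g2 of ATP synthase by 0.29.

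Mitochondrial transcription and its regulators (16 genes) had a median of 0.027, with 9 above 0 and 7 below. Gabpb1, a subunit of the ETS-family factor GABP (NRF2), had 7.16, 7.47 and 6.96 in antibiotics samples, against 7.76, 7.64 and 7.72 in re-fed samples. All antibiotics samples were below all re-fed samples, with a difference of -0.51 (adjusted p = 0.203). Tfam, which packages mitochondrial DNA and takes part in its transcription, differed by -0.38 (adjusted p = 0.343). The groups of Tfam overlapped. Its mean in antibiotics samples was 5.78, under the 5.81 below which a gene was called dim. Pprc1 went the other way, with a difference of 0.25.

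Genes of the cytosolic ribosome stood higher more often than those of the mitochondrial one. Cytosolic ribosomal proteins (55 genes) had a median of 0.20, with 50 above 0 and 5 below, and 10 (18.2%) at an unadjusted p under 0.05, against 12.6% of all genes. Ribosome biogenesis genes (39 genes) had a median of 0.24, with 36 above and 3 below, and 16 (41.0%) at an unadjusted p under 0.05. Of these 16, 15 stood higher and 1 lower. The mean of the crypt-base and cycling markers stood 0.29 higher with antibiotics over 6 arrays; its part in these counts was not tested. Within the common run the medians of the cytosolic and the biogenesis list were 0.18 and 0.19. There 5 of the 55 and 17 of the 39 genes had an unadjusted p under 0.05, against 17.4% of all genes. Nop56, of the snoRNP core, had 9.24, 8.90 and 9.05 in antibiotics samples, against 8.42, 8.62 and 8.21 in re-fed samples, a difference of 0.64 (adjusted p = 0.127). Rps19 differed by 0.52 (adjusted p = 0.179). The lists differ in their middles, and that difference was not tested. Re-fed replicate 3 was low for both lists, at a mean deviation of -0.24 and -0.26, where the mitochondrial ribosomal protein genes stood at 0.0071.

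Promoter sequence, which the rule did not use, was described by counts of motifs with no test of enrichment. RefSeq promoter windows, 250 bases before to 50 after each start in GRCm38.p6, were found for 68 of the 77 genes (74 windows). The ETS motif CCGGAAG, read on both strands, was in 33.8% of the 74, against 16.1% of windows of the genes tested and 8.86% of all 32851 windows. Cytosolic ribosomal protein genes had it in 36.8% and oxidative phosphorylation subunits in 23.2%. The YY1 motif AAGATGGC was in 16.2%, against 4.17% of genes tested and 2.75% of all windows, and in 14.5% for oxidative phosphorylation subunits and 11.8% for cytosolic ribosomal proteins. The NRF1 motif GCATGCGC was in 10.8%, against 4.73% and 2.71%, and in 15.9% for oxidative phosphorylation subunits. The E-box CACGTG, which Myc can bind, was in 9.46%, against 9.79% and 7.15%. These are 7 windows of 5 genes. Ribosome biogenesis genes had the E-box in 22.4%, cytosolic ribosomal proteins in 11.8% and oxidative phosphorylation subunits in 10.1%. All 4 were searched on both strands with no mismatch; the last letters of the ETS motif are the first of the YY1 motif, so these can overlap.

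ETS windows of 6 of the named genes are printed to show how the motif sits among different bases. Each line has 37 bases on the gene's strand of GRCm38.p6, with the motif or its reverse complement in capitals. They lie at chr14:20393543-20393579 (Mrps16, minus strand), chr6:125192095-125192131 (Mrpl51), chr11:58171596-58171632 (Mrpl22), chr14:54426847-54426883 (Mrpl52), chr17:46110963-46110999 (Mrps18a) and chr5:100798588-100798624 (Mrps18c), the last 5 on the plus strand.
Mrps16: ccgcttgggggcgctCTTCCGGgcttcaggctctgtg
Mrpl51: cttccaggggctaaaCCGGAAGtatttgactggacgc
Mrpl22: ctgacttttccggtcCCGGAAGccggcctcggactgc
Mrpl52: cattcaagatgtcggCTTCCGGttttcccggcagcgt
Mrps18a: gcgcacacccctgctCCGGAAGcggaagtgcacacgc
Mrps18c: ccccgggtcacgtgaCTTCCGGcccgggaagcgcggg
The match begins 74 bases before the start for Mrps16, which has 2 starts, 90 for Mrpl51, 53 for Mrpl22, 47 for Mrpl52, 26 for Mrps18a and 156 for Mrps18c. Over the 25 genes with a match there were 29 matches, of which 26 lay within 100 bases before to 50 bases after the start. Mrps16 and Mrpl51, with differences of 0.46 and -0.25, both hold the motif. The value of Mrpl51 is from a probe set numbered among genes of another chromosome, and the probe set at its own chromosome gave -0.36.

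Differences of the genes with and without a motif are given as counts, with no test. They are the differences over 6 arrays. Within the 4 arrays of the common run the lean above 0 was not seen, with 35 of the 77 genes above 0 and 42 below. The 25 genes with an ETS match had a median difference of 0.098, with 17 above 0 and 8 below, and the 43 without had 0.031, with 27 above and 16 below. Among the 25 are Mrpl27, Mrpl48, Mrpl51 and Mrps33, with values from probe sets numbered among genes of another chromosome. Probe sets at the own chromosome gave -0.11 for Mrpl27, -0.36 for Mrpl51 and 0.0062 for Mrps33. With the YY1 motif 10 of 12 genes stood above 0, at a median of 0.082, and without it 34 of 56, at 0.055. With the NRF1 motif 4 of 8 genes stood above 0, at a median of -0.0099, and without it 40 of 60, at 0.075. A match is a run of letters and was not tested as a binding site. Another gene's start on the opposite strand within 1000 bases was found for 28 of the 74 windows (37.8%), against 16.5% of windows of the genes tested. The share was 34.7% for ribosome biogenesis genes, 31.9% for oxidative phosphorylation subunits and 20.6% for cytosolic ribosomal proteins. Among the named genes Mrpl50 lies 93 bases from Zfp189, Mrpl51 lies 614 from Ncapd2 and Mrps18b lies 756 from Ppp1r10.

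**Figure D5:**
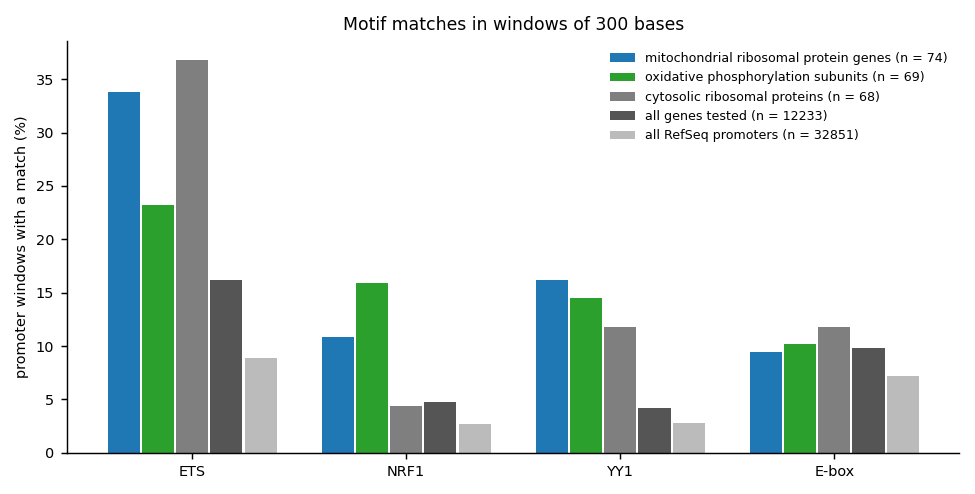
Bars give the share of promoter windows with a match (percent, vertical axis from 0) for 4 motifs, from left to right in mitochondrial ribosomal protein genes, oxidative phosphorylation subunits, cytosolic ribosomal proteins, all genes tested and all RefSeq windows. The mitochondrial ribosomal protein genes stand at 33.8% for ETS against 16.1% of genes tested, and at 9.46% for the E-box against 9.79%.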

How the data were processed

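Total RNA of the 6 sorted samples was hybridised to Affymetrix arrays as biotin-labelled cRNA, per the labels' protocols. For 35557 probe sets the authors deposited log2 expression made with RMA, per the submitters' processing notes; RMA corrects background, normalises by quantiles and sums up the probes of a set. Its version, the annotation and the build were not found in the sources used here. Groups were taken from the sample titles. Medians of the deposited arrays were 6.17, 6.16 and 5.63 in antibiotics samples and 5.87, 6.06 and 6.08 in re-fed samples, so quantile normalisation was repeated over the 23410 probe sets with a gene. Of these, 21789 named 1 gene; 1621 named several and were left out, among them 1 that names Mrpl53 with Ccdc142. Identifiers of all 85 member probe sets matched RefSeq (GRCm38.p6). RMA gives no detection call, so genes whose mean lay below the 40th percentile were not tested.

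Tests used limma 3.58.1 under R 4.3.3 (lmFit, eBayes, two-sided, Benjamini-Hochberg over 12071 genes, threshold 0.05, no block). The procedure was tested on simulated data. Errors are SDs or limma's SEs; RNA amounts are relative to all genes, and the number of arrays limits precision. Levels of different probe sets were not compared. Motifs were counted with Python 3.11.15.

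Members, lists, tests and alternatives were chosen with earlier results of these data known. The naming rule took members past the threshold, up to 8 per direction by unadjusted p, the 3 with the highest and the 3 with the lowest mean, 2 per subunit nearest 0, 7 fixed genes (Mrpl12, Mrps12, Mrps30, Mrps18a, Mrps18b, Mrps18c, Mrps36), up to 3 per comparison list, and Epcam, Ptprc and Myc. Alternatives were the deposited scaling, no or a stricter filter, array weights, the replicate block, the 4 arrays of the common run, the mean over probe sets, and each replicate left out; the probe set at the gene's own chromosome was added after seeing the data.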

Additional observations from a re-analysis of the deposited data

How the results depend on the processing

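No setting but array weights called a mitochondrial ribosomal protein gene. The count of all genes past the threshold, 7 over 6 arrays, was 45 with the deposited scaling, 2 with no filter on dim genes, 43 with the stricter filter, 1169 with array weights and 54 in the common run; leaving out 1 array gave 0 to 11. Members past the threshold were 2 with array weights and 0 in every other setting. Their median difference was -0.088 with the deposited scaling, where the median over all genes was -0.12, so members lay 0.030 above it; leaving out 1 array gave 0.016 (without antibiotics replicate 3) to 0.13 (without antibiotics replicate 2). The large minus the small median was 0.043 with array weights and 0.049 in the common run, and -0.037 to 0.025 when 1 array was left out. With the replicate number as a block, 7 genes and 0 members passed, with a member median of 0.067 and a gap of -0.026. Same-numbered samples share only a number: their deviations correlated by 0.021, -0.034 and -0.22.

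Of the 27 named members, 11 changed sign in at least 1 setting, as did 5 other named genes (Dap3, Chchd1, Gadd45gip1, Oxa1l and Epcam). The cause was not tested. The deposited scaling put the median over all genes itself at -0.12, against 0.0033 after the repeated quantile normalisation. With the deposited scaling Mrps21 stood at -0.055, Mrpl52 at -0.20, Mrpl32 at -0.067, Mrpl12 at -0.11, Mrps18a at -0.099, Mrps18c at -0.040, Dap3 at -0.095, Chchd1 at -0.097 and Oxa1l at -0.0026. With array weights Mrps21 stood at -0.070, Mrps30 at -0.042, Mrpl32 at -0.083, Mrps35 at 0.088 and Gadd45gip1 at -0.020. In the common run Mrps21 stood at -0.10, Mrps30 at -0.11, Mrpl32 at -0.097, Mrps12 at 0.018, Mrps35 at 0.013, Mrps18c at -0.048 and Epcam at 0.048. Mrpl41 was at 0.0082 as the mean over its probe sets and at 0.15 with the probe set at its own chromosome. With 1 array left out the ranges were -0.037 to 0.25 for Mrps21, -0.045 to 0.28 for Mrps30, -0.31 to 0.091 for Mrpl22, -0.078 to 0.14 for Mrpl52, -0.060 to 0.071 for Mrpl32, -0.058 to 0.064 for Mrps12, -0.090 to 0.042 for Mrps35, -0.020 to 0.20 for Mrpl12, -0.011 to 0.25 for Mrps18c, -0.025 to 0.23 for Dap3, -0.12 to 0.22 for Gadd45gip1 and -0.075 to 0.026 for Epcam. With 3 arrays per group, the 95% intervals of members reached 0.21 to 0.55 to either side.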
